A study of Mus musculus with 6 samples.

Results

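The ER membrane protein complex (EMC) was followed through 9 genes for its subunits, Emc1, Emc2, Emc3, Emc4, Emc6, Emc7, Emc8, Emc9 and Emc10, which were picked by gene symbol from the 29139 genes of the count table, and each symbol matched 1 Ensembl identifier. The RNA came from ICR mouse embryos at the 2-cell stage grown in the embryo medium KSOM. The control group received 0.1% DMSO, the solvent, and the treated group 75 µM MS-444, a small molecule reported to inhibit the RNA-binding protein HuR. Each group had 3 libraries, and per the labels' protocols 16 embryos were lysed for reverse transcription, and samples were pooled before the cDNA was purified and amplified. The labels give no time in culture and do not say that the replicates were separate cultures, so the p-values reflect the variation among these samples alone, and that variation may be technical. Less RNA per cell and fewer cells cannot be told apart in such libraries.

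The EMC sits in the membrane of the endoplasmic reticulum and helps to insert hydrophobic segments of new proteins into it, among them tail anchors and the first membrane segments of some receptors and transporters. Emc3 belongs to the Oxa1 family of insertases and works with Emc6 and with the subunit EMC5, which mouse encodes as Mmgt1 and Mmgt2. Emc2 is the scaffold on the cytosolic face, and Emc8 and Emc9 are paralogs that bind there in place of each other. Emc1, Emc7 and Emc10 reach into the lumen, and Emc4 lies beside the insertase in the membrane.

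Several of these genes share a start region with another gene. In the GENCODE M21 annotation (GRCm38), 5 of the 9 (Emc1, Emc3, Emc6, Emc8 and Emc10) had a protein-coding gene starting within 1 kb on the other strand, as had 16.4% of the 10491 protein-coding genes tested. For 4 of them the 2 annotated starts were separated by the bases shown here, which are the whole stretch between the EMC gene and its neighbour, read on the strand of the EMC gene from RefSeq (GRCm38.p6) with CG dinucleotides in capitals.
Emc1 and Mrto4, chr4:139352577-139352586, plus strand: ggtgcatgcc
Emc3 and Fancd2, chr6:113531653-113531681, minus strand: atcaaagcCGCGcCGtggCGtgaCGttac
Emc6 and Tax1bp3, chr11:73177038-73177082, minus strand: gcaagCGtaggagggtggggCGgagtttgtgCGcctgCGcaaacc
Emc10 and Fam71e1, chr7:44496530-44496580, minus strand: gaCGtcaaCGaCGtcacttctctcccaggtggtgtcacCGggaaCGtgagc
The starts lay 11 bases apart for Emc1, 30 for Emc3, 46 for Emc6 and 52 for Emc10, while the annotated starts of Emc8 and Cox4i1 overlapped, with 352 bases in common. CG dinucleotides numbered 5 between Emc3 and Fancd2, 4 between Emc6 and Tax1bp3, 5 between Emc10 and Fam71e1 and 0 between Emc1 and Mrto4.

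Emc9, the subunit with the largest fitted change, had no such neighbour. The 202 bases before its annotated start (chr14:55585303-55585504, minus strand, GRCm38.p6, from RefSeq) are given with both matches to the CCAAT box, on either strand, in capitals.
Emc9: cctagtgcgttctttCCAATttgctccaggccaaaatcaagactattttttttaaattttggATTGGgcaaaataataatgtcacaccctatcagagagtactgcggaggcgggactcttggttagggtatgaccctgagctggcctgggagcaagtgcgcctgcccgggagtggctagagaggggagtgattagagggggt
Promoters of 250 bases before the RefSeq start were at hand for 7 subunits, and both strands were searched. CCAAT was found for 2 of them (Emc6 and Emc9), and in 34.5% of 27025 promoters. The GC box GGGCGG was found for 3 (Emc1, Emc6 and Emc10), and in 32.9% of all promoters. The TATA box TATAAA and the core TGACGTG of the unfolded protein response element were found for 0 of the 7, and in 13.0% and 1.61% of all promoters.

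HuR binds AU-rich stretches, mostly in 3′ untranslated regions. The pentamer ATTTA occurred in that region of 7 of the 9 subunits, in the longest coding transcript of each, and in 72.0% of 10393 genes tested that have such a region. The heptamer TATTTAT, which contains ATTTA, occurred in 2 subunits, Emc1 and Emc4, and in 31.2% of those genes. The looser U-rich pattern TTTNTTT occurred in 6 subunits and in 71.6% of those genes. Both heptamer sites are shown from GENCODE M21 with the heptamer in capitals.
Emc1, chr4:139378571-139378595, plus strand: tattattatTATTTATatattgtct
Emc4, chr2:112363120-112363144, minus strand: agaaaacttTATTTATgttcccagc
The regions searched ran from 41 bases in Emc9, with 0 matches to any of the 3 patterns, to 5029 bases in Emc7, with 8 matches to ATTTA. The median over the genes tested was 1144 bases. A match of letters is not a bound site.

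Library totals ranged from 2637763 to 4695866 counts, and each of the 6 markers of the 2-cell embryo was present, with a summed level of 1011 to 1972 CPM, read counts scaled to library size, in DMSO and 1121 to 1529 CPM under MS-444. CPM were computed after TMM scaling, a correction for library composition. Of 11864 genes that passed the filter on low counts, 3028 (25.5%) had an adjusted p under 0.05 in edgeR's quasi-likelihood test, 1706 higher in MS-444 (14.4%) and 1322 lower (11.1%). Leaving out DMSO replicate 2 or 3 gave 1044 and 880 higher genes. Leaving out MS-444 replicate 2 or 3 gave 659 and 671 higher and 552 and 500 lower genes. With offsets for GC content and transcript length 1728 genes were higher and 2030 lower, and with library totals alone 2179 and 881. Elavl1, which encodes HuR, had 73.3 ± 22.3 CPM under DMSO and 51.4 ± 6.58 CPM under MS-444 (SD, n = 3) and did not pass (edgeR adjusted p = 0.21). The 6 oocyte markers summed to 4592 to 6731 CPM under DMSO and 2702 to 2760 CPM under MS-444, most of it from Bmp15 (means of 3821 and 1628 CPM). Bmp15, Gdf9 and Nlrp5 had all MS-444 libraries below DMSO, Oog1 and Mos had overlapping groups, and Zp3 lay above, at 29.2 ± 3.70 CPM and 38.8 ± 6.25 CPM (SD, n = 3). Of 9 cumulus and granulosa cell markers, 8 had a row, with summed levels of 11.0 to 13.6 CPM under DMSO and 24.3 to 29.3 CPM under MS-444, while Ptx3 was at 0 throughout MS-444 and Lhcgr throughout DMSO. Within that list Amhr2 went from 2.65 ± 0.75 to 16.7 ± 2.14 CPM and Tnfaip6 from 1.26 ± 1.34 to 4.07 ± 1.11 CPM, whereas Cyp19a1 went the other way, from 6.48 ± 1.14 to 3.25 ± 0.80 CPM (SD, n = 3), each with groups that did not overlap. Of 4 blood markers, 2 had a row, with sums of 2.04 to 7.37 CPM under DMSO and 9.52 to 24.5 CPM under MS-444. The 4 sperm markers summed to 0 to 5.29 CPM and 2.99 to 3.66 CPM. The part of these shifts in the EMC values was not tested.

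As a group, the EMC transcripts were of low to middling level, and 7 of the 8 tested had a fitted change above 0, with Emc2 as the exception. By mean CPM over the 6 libraries, 9.01% of the genes tested lay below Emc9 and 68.8% below Emc3. The 9 genes together held 142.3, 161.8 and 110.7 CPM in the DMSO libraries and 219.4, 280.5 and 250.4 CPM in the MS-444 libraries. Of the 9, 8 passed the filter, and Emc10 did not. The complex was picked for description with results of this comparison known, so its fold changes and calls describe these libraries and support nothing beyond them. Of the 8, 3 were past the threshold as higher in MS-444 (Emc3, Emc7 and Emc9), against 14.4% of all genes tested, and 0 as lower, against 11.1%. That count of 3 became 5 without DMSO replicate 1, 2 without DMSO replicate 3 or either of the MS-444 replicates 1 and 3, and 1 without MS-444 replicate 2. Over all genes tested, the number higher was 2099 of 12855 without DMSO replicate 1 and 880 of 12403 without DMSO replicate 3. It was 1274 of 12631, 659 of 12601 and 671 of 12042 without MS-444 replicates 1, 2 and 3. The groups did not overlap, with MS-444 above, for 5 of the 8 (Emc1, Emc3, Emc4, Emc7 and Emc9), where this held for 23.0% of the genes tested, and with MS-444 below for 0 of the 8, against 20.9%. The median fitted log2 fold change of the 8 was 1.20, beside 0.02 over the genes tested. Emc9 reached the filter only through its MS-444 libraries, so that its place among the 8 rests on its level there.

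**Figure D1:**
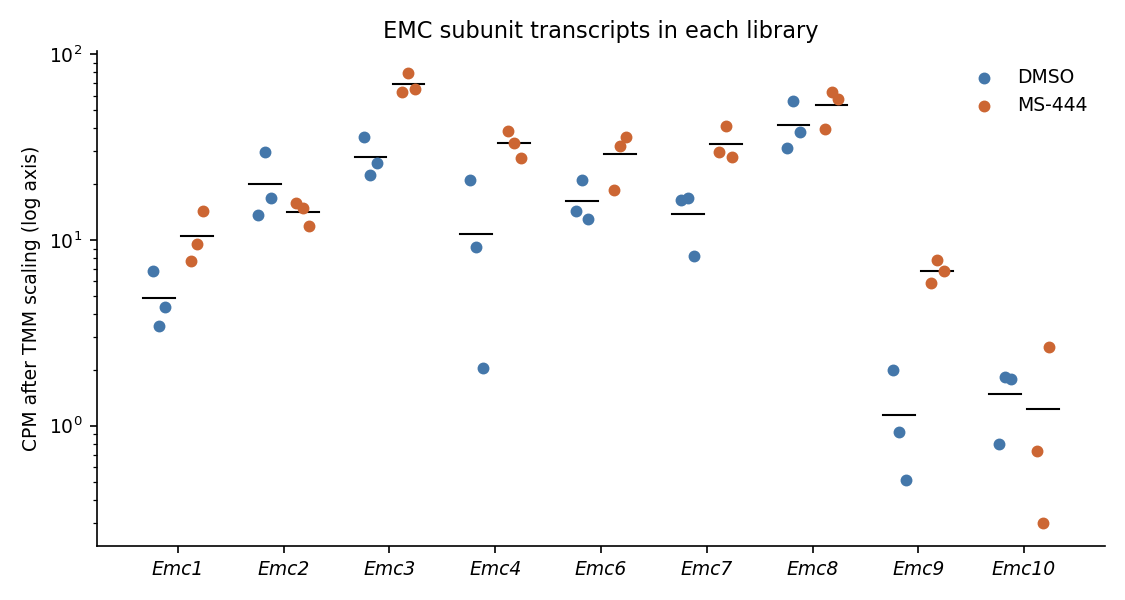
CPM of the 9 EMC subunit genes in each of the 6 libraries on a log axis, with DMSO in blue and MS-444 in orange (points: libraries, bars: means of 3). For Emc3, the MS-444 libraries stand at 62.6 to 79.2 CPM, above the DMSO libraries at 22.3 to 36.0 CPM, whereas for Emc2, Emc6, Emc8 and Emc10 the groups overlap.

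In the insertase core, Emc3 (ENSMUSG00000030286, chr6:113514874-113531652, GRCm38) stood at 36.0, 22.3 and 26.0 CPM under DMSO replicates 1, 2 and 3 and at 62.6, 79.2 and 65.3 CPM under MS-444 replicates 1, 2 and 3. The lowest MS-444 library thus lay well above the highest DMSO library. Its fitted log2 fold change was 1.30 (SE 0.28, edgeR adjusted p = 0.011), or 2.47-fold, and without MS-444 replicate 2 the call ended at 1.13 (adjusted p = 0.062).

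Emc6 (ENSMUSG00000047260, chr11:73175519-73177037), which pairs with Emc3 in the membrane, held 14.4, 21.2 and 13.0 CPM under DMSO and 18.7, 32.3 and 35.9 CPM under MS-444. Its groups overlapped, since MS-444 replicate 1 lay below DMSO replicate 2. Its log2 fold change was 0.84 (SE 0.35, edgeR adjusted p = 0.10).

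The third gene of the core, Mmgt1 (ENSMUSG00000061273, chrX:56585512-56598069), encodes EMC5 and was not among the 9. It held 40.4, 36.1 and 41.3 CPM under DMSO and 34.4, 47.5 and 41.5 CPM under MS-444, with overlapping groups. Its log2 fold change was 0.07 (SE 0.26, edgeR adjusted p = 0.87), which turned to -0.05 on leaving out DMSO replicate 2 and to -0.11 on leaving out MS-444 replicate 2. Its paralog Mmgt2 had 3.45 ± 1.67 CPM under DMSO and 4.45 ± 1.41 CPM under MS-444 (SD, n = 3), and did not pass either (log2 fold change 0.31, SE 0.51, adjusted p = 0.68). Without DMSO replicate 1 that change was -0.049. Whether Emc3 and Mmgt1 differ in their change was not tested.

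On the cytosolic side, Emc2 (ENSMUSG00000022337, chr15:43477229-43527763), the scaffold that holds Emc8 or Emc9, was the only 1 of the 8 with a fitted change below 0. It stood at 13.6, 29.9 and 16.8 CPM under DMSO and 15.8, 14.9 and 11.9 CPM under MS-444. The groups overlapped, and DMSO replicate 2 was the high library. The log2 fold change was -0.52 (SE 0.37, edgeR adjusted p = 0.32). The ratio of Emc3 to Emc2 CPM, a comparison of transcripts within a library, was 2.65, 0.746 and 1.55 in DMSO and 3.98, 5.30 and 5.49 in MS-444. It sets a subunit called higher over the only 1 with a fitted change below 0. The ratio thus restates those values, and the lowest, 0.746, came from DMSO replicate 2, where Emc2 was high.

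Emc8 (ENSMUSG00000031819, chr8:120653914-120668573) held 31.2, 56.2 and 38.0 CPM under DMSO and 39.6, 62.4 and 57.7 CPM under MS-444, with overlapping groups and a fitted log2 change of 0.35 (SE 0.31, edgeR adjusted p = 0.43). Emc9 (ENSMUSG00000022217, chr14:55581516-55585302) held 2.00, 0.921 and 0.510 CPM under DMSO and 5.86, 7.77 and 6.79 CPM under MS-444. Each MS-444 library was above each DMSO library for Emc9, but the values rest on few reads.

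Summed over libraries, Emc9 had 11 counts in DMSO and 70 in MS-444, a ratio of 6.72 after scaling (95% exact binomial interval 3.53 to 14.1). Such intervals cover counting error only, since PCR reads are not independent molecules. The fitted log2 fold change of Emc9 was 2.64 (SE 0.55, edgeR adjusted p = 0.0093), and with offsets for GC content and transcript length it was 1.89 (adjusted p = 0.026). As a share of Emc8 plus Emc9 CPM, Emc9 made up 6.02%, 1.61% and 1.32% in the DMSO libraries and 12.9%, 11.1% and 10.5% in the MS-444 libraries. The groups did not overlap in this share, which is not corrected for transcript length. The share is drawn from the same few Emc9 reads as the fitted change, so it is no separate result.

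Among the subunits at the lumen and beside the core, Emc7 (ENSMUSG00000055943, chr2:112454997-112472162) held 16.4, 16.8 and 8.16 CPM under DMSO and 29.7, 40.9 and 28.1 CPM under MS-444. Its groups did not overlap, and DMSO replicate 3 was the low library. The log2 fold change was 1.26 (SE 0.36, edgeR adjusted p = 0.029). That call ended without DMSO replicate 3 (0.94) and without each of the MS-444 replicates 1 (1.27), 2 (1.01) and 3 (1.35), with adjusted p of 0.086, 0.056, 0.14 and 0.070.

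Emc4 (ENSMUSG00000027131, chr2:112363011-112368027) varied widely within DMSO, at 21.2, 9.21 and 2.04 CPM, and stood at 38.8, 33.2 and 27.7 CPM under MS-444. The groups did not overlap, and the DMSO values came from 53, 40 and 8 counts. The log2 fold change of 1.66 (SE 0.60) did not pass (edgeR adjusted p = 0.064), and it did without DMSO replicate 1, at 2.48 (adjusted p = 0.011).

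Emc1 (ENSMUSG00000078517, chr4:139352587-139378730), the largest luminal subunit, held 6.80, 3.45 and 4.34 CPM under DMSO and 7.69, 9.56 and 14.3 CPM under MS-444. Its groups were adjacent without overlapping. The log2 fold change of 1.15 (SE 0.43) did not pass (edgeR adjusted p = 0.075), and it did without DMSO replicate 1, at 1.37 (adjusted p = 0.047).

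Emc10 (ENSMUSG00000008140, chr7:44489937-44496529), a luminal subunit, was near the limit of detection. It had 2, 8 and 7 counts in DMSO and 2, 1 and 11 counts in MS-444, or 17 against 14 in all. The ratio after scaling was 0.869 with a 95% exact binomial interval of 0.397 to 1.87, and a change within that interval was not detectable at this depth. The interval covers counting error only and not the spread between libraries, so larger changes are not excluded either.

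**Figure D2:**
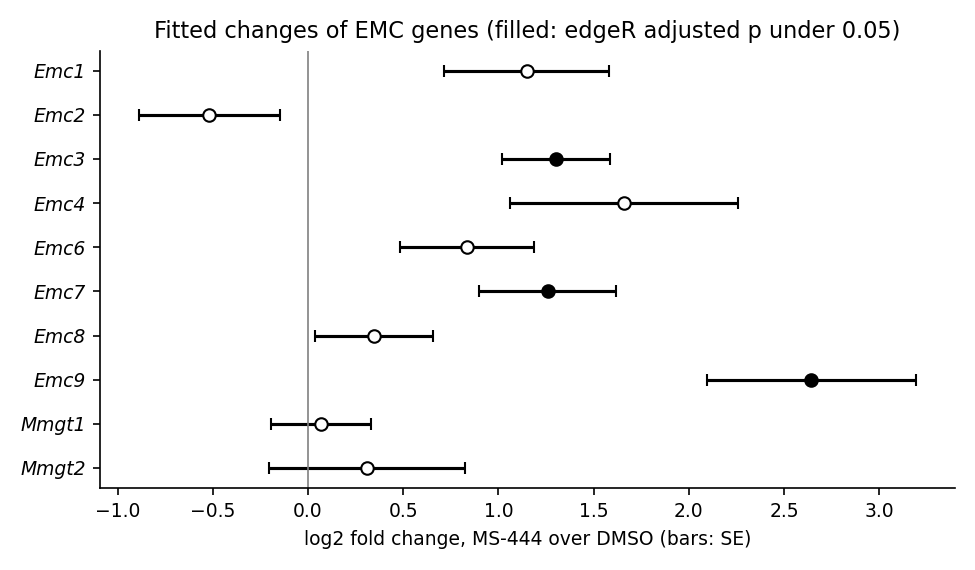
Fitted log2 fold change of MS-444 over DMSO for the 8 tested EMC subunits and the EMC5 genes Mmgt1 and Mmgt2, with bars of 1 SE from edgeR and filled points past the adjusted p threshold of 0.05. Values run from -0.52 for Emc2 to 2.64 for Emc9, with Mmgt1 at 0.07.

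Levels between subunits were compared per kb of each gene's longest coding transcript. In DMSO the order of CPM per kb was Emc2 (16.3 ± 7.02), Emc3 (14.2 ± 3.56), Emc6 (12.2 ± 3.28), Emc4 (11.0 ± 9.84), Emc8 (8.46 ± 2.61), Emc7 (2.37 ± 0.84), Emc9 (1.34 ± 0.90), Emc10 (0.788 ± 0.31) and Emc1 (0.780 ± 0.28; SD, n = 3). Neighbours in that order overlapped in their ranges, except that each library of Emc8 lay above each library of Emc7. In MS-444 the order was Emc3 (34.8 ± 4.47), Emc4 (33.8 ± 5.68), Emc6 (21.7 ± 6.82), Emc2 (11.5 ± 1.65), Emc8 (10.8 ± 2.44), Emc9 (7.96 ± 1.11), Emc7 (5.65 ± 1.20), Emc1 (1.69 ± 0.55) and Emc10 (0.659 ± 0.67). There the ranges separated Emc4 from Emc6, Emc6 from Emc2 and Emc7 from Emc1, and the other neighbours overlapped. The scaffold Emc2 was thus the first by mean under DMSO and the fourth under MS-444. Transcript ends used in embryos may differ from the annotation, which would change these values for genes with long 3′ regions such as Emc7, Emc8 and Emc1. Other annotated genes cover most or all of Emc1, Emc4 and Emc8. How reads shared with those genes were counted is not known, and this could change the order as well.

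The genes next to the EMC genes did not share 1 pattern. Cox4i1, a cytochrome c oxidase subunit whose start overlaps that of Emc8, rose from 14.4, 28.1 and 8.68 CPM under DMSO to 54.6, 88.7 and 79.8 CPM under MS-444. Its log2 fold change was 2.11 (SE 0.42, edgeR adjusted p = 0.0081), and 1.38 (adjusted p = 0.0051) with offsets for GC content and length, while Emc8 did not pass. No source used here says whether reads were counted by strand, so that reads from the 352 shared bases could count for either gene.

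Fancd2, a DNA repair gene that starts 30 bases from Emc3, had 11.1 ± 1.73 CPM under DMSO and 12.6 ± 5.50 CPM under MS-444 (SD, n = 3) and a fitted log2 change of 0.15 (SE 0.39, adjusted p = 0.80) that turned to -0.021 on leaving out DMSO replicate 1 and to -0.29 on leaving out MS-444 replicate 1. Mrto4, a ribosome assembly factor that starts 11 bases from Emc1, had a fitted log2 change of 0.79 (SE 0.32, adjusted p = 0.091) beside the 1.15 of Emc1. Its groups did not overlap, with MS-444 above. Tax1bp3 beside Emc6 and Fam71e1 beside Emc10 were too rare to be tested, at means of 1.98 and 0.672 CPM under DMSO.

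Other neighbours overlap a subunit gene along its body, which leaves the assignment of shared reads uncertain. Gm21985, which spans Emc4, was near 0, with means of 0.0767 CPM under DMSO and 0.122 CPM under MS-444. Ubr4 on the strand of Emc1 covers 26122 bases of it and had a fitted log2 change of 0.02 (SE 0.30, adjusted p = 0.96), whose sign was negative in 4 of 15 alternative settings. Psme1, a subunit of the proteasome activator, meets Emc9 tail to tail with 14 shared bases. It had 3, 5 and 0 counts in DMSO and 18, 19 and 27 in MS-444, and rose by 3.0 on the log2 scale (SE 0.70, adjusted p = 0.014), a call that ended without MS-444 replicate 2 (3.0, adjusted p = 0.052) or replicate 3 (2.94, adjusted p = 0.060) and whose value was 2.34 without DMSO replicate 3. Like Emc9, Psme1 reached the filter only through its MS-444 libraries. Lrrc75a, which starts 141 bases from Mmgt2, rose from 10.5 ± 4.61 to 38.3 ± 4.68 CPM (SD, n = 3; log2 fold change 1.89, SE 0.36, adjusted p = 0.0074).

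**Figure D3:**
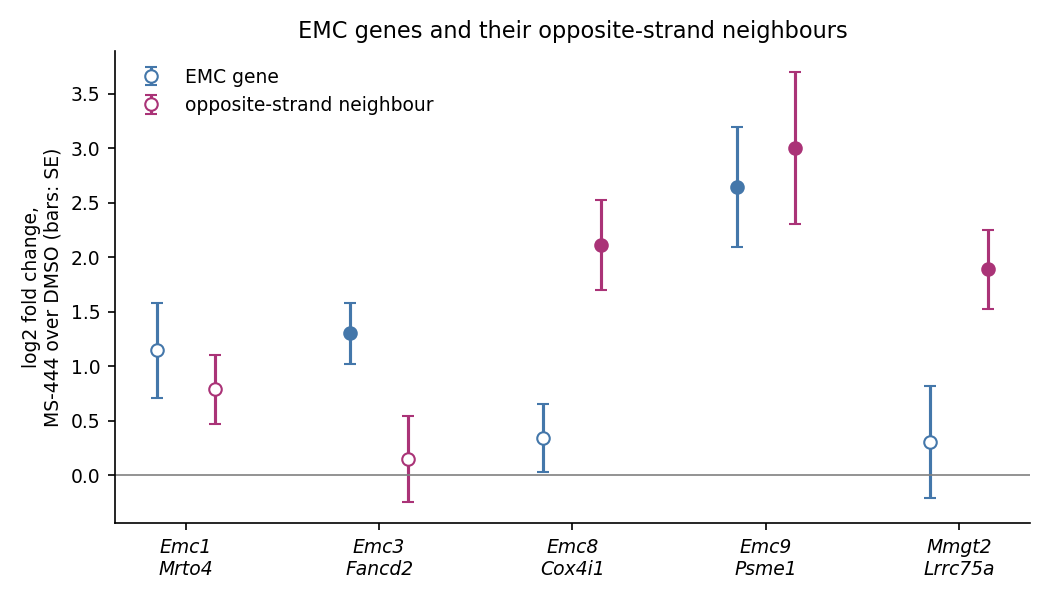
Log2 fold change of MS-444 over DMSO with bars of 1 SE for Emc1, Emc3, Emc8, Emc9 and the EMC5 gene Mmgt2 (blue) and a neighbour on the opposite strand (purple), filled where the edgeR adjusted p was under 0.05. The neighbour starts near the EMC gene except Psme1, which meets the end of Emc9. Cox4i1 stands at 2.11 beside Emc8 at 0.35, and Emc3 at 1.30 beside Fancd2 at 0.15.

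Of the 61 other genes of protein insertion and processing at the ER membrane, with Mmgt1 and Mmgt2 counted among them, 57 were tested. There 8 rose (14.0%, against 14.4% of all genes tested) and 1 fell (1.75%, against 11.1%), while 48 did not pass. Of the 8, Wrb and Tmem208 met the cutoff of the filter in 0 DMSO libraries and Spcs3 in 1, against 3 MS-444 libraries each. These genes reached the filter only through their MS-444 libraries, so that they could be tested only because they were high there. The 8 became 3 without DMSO replicate 3 or MS-444 replicate 2, and leaving out MS-444 replicate 1 or 3 gave 4. Over all genes tested, 880, 659, 1274 and 671 were higher in those settings, in the order named, against 1706 with all libraries. The median log2 fold change of the 57 was 0.10, beside 0.02 over the genes tested. The groups did not overlap for 16 of the 57, against 43.9% of all genes tested, with MS-444 above in 10 and below in 6. Rises were thus about as common as over all genes, and Srp54a, Ncln, Abca1 and Adrb1 were too rare to be tested.

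The Sec61 channel, the main gate for new proteins into the ER, and its helpers had 12 genes tested. Of the 12, 2 rose (16.7%, against 14.4% of all genes tested) and 1 fell (8.33%, against 11.1%). Ssr2, of the translocon-associated complex, rose from 7.88 ± 0.93 to 32.4 ± 1.99 CPM (SD, n = 3; log2 fold change 2.04, SE 0.30, edgeR adjusted p = 0.0035). Sec61a2, a paralog of the channel subunit, rose from 17.9 ± 6.83 to 68.6 ± 10.4 CPM (log2 fold change 1.94, adjusted p = 0.0059), while Sec61a1 did not pass (0.23, adjusted p = 0.57). Tram1, a channel helper with the most CPM in these lists, fell from 734.8 ± 51.1 to 456.3 ± 31.3 CPM (log2 fold change -0.69, adjusted p = 0.035). The call of Tram1 ended without any DMSO library or without MS-444 replicate 2 or 3 (-0.80 to -0.65, adjusted p 0.052 to 0.11), with library totals alone (-0.50, adjusted p = 0.092) and without a filter (-0.74, adjusted p = 0.060).

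The signal recognition particle and its receptor, which bring ribosomes to the ER, had 0 of 9 genes past the threshold, against 25.5% of all genes tested. MS-444 lay below DMSO without overlap for 3 of the 9, against 20.9%, and above for 1, against 23.0%. The median log2 fold change of the 9 was -0.03. The most abundant of them, Srp14, had a fitted log2 change of 0.39 (adjusted p = 0.46), which was -0.16 with offsets for GC content and length. Of 7 genes of the GET pathway for tail-anchored proteins, Wrb, a subunit of its receptor, rose from 0.763 ± 0.80 to 4.03 ± 0.65 CPM (SD, n = 3; log2 fold change 2.51, adjusted p = 0.034). Wrb had 4, 3 and 0 counts in DMSO and 10, 16 and 15 in MS-444, and its call ended without DMSO replicate 2, DMSO replicate 3 or any MS-444 library (1.84 to 2.55, adjusted p 0.071 to 0.13). Without DMSO replicate 1 the value was 3.31. Caml, its partner in the receptor, had a fitted log2 change of 0.22 (adjusted p = 0.63) that was -0.022 with the same offsets, -0.040 on leaving out DMSO replicate 3 and -0.0024 on leaving out MS-444 replicate 1.

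Tmem208 of the SND route, another way into the ER, rose from 0.772 ± 0.72 to 8.26 ± 1.97 CPM (SD, n = 3; log2 fold change 3.54, SE 0.62, edgeR adjusted p = 0.0058), on 4, 2 and 1 counts in DMSO and 18, 26 and 43 in MS-444. Leaving out DMSO replicate 1 gave a log2 value of 4.34. Of 6 genes tested of the translocon for multipass proteins, Tmco1, an Oxa1 family member like Emc3, rose from 47.5 ± 14.6 to 89.3 ± 15.6 CPM (log2 fold change 0.91, adjusted p = 0.048). Its call ended without DMSO replicates 2 or 3 or any MS-444 library (0.65 to 1.02, adjusted p 0.089 to 0.20), with median-ratio scaling (0.90, adjusted p = 0.053) and without a filter (0.87, adjusted p = 0.060). Rab5if, the most abundant of these genes, had a fitted log2 change of 0.03 (adjusted p = 0.94), with a negative sign in 6 of 15 settings.

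Of 5 signal peptidase genes, Spcs3 rose (log2 fold change 1.53, adjusted p = 0.033), on 8, 9 and 8 counts in DMSO and 23, 24 and 22 in MS-444. Its call ended without DMSO replicates 2 or 3 or any MS-444 library (1.32 to 1.68) and without a filter (1.48, adjusted p = 0.078). Spcs2, the most abundant, did not pass (-0.23, adjusted p = 0.52). Of 12 genes of the oligosaccharyltransferase, which attaches glycans, Ost4 (1.31, adjusted p = 0.028) and the catalytic subunit Stt3a (1.54, adjusted p = 0.032) rose. Without either of DMSO replicates 1 and 3 or MS-444 replicates 2 and 3 the call of Ost4 ended (1.05 to 1.16), and that of Stt3a without either of DMSO replicates 2 and 3 or MS-444 replicates 1 and 2 (0.87 to 1.66). Its paralog Stt3b, at 516.9 ± 127.1 CPM under DMSO (SD, n = 3), had a fitted log2 change of -0.22 (adjusted p = 0.54). The share called higher was 14.3% for the GET pathway and 16.7% for the translocon for multipass proteins. It was 20% for the signal peptidase and 16.7% for the oligosaccharyltransferase, against 14.4% of all genes tested. Of 5 genes for proteins reported to need the EMC, 3 were tested and 0 passed, against 25.5% of all genes tested, with a median of -0.39. For 1 of the 3, Soat1, MS-444 lay below DMSO without overlap, which held for 20.9% of all genes tested. Fdft1, the squalene synthase, had a fitted log2 change of -0.39 (SE 0.24, adjusted p = 0.24).

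**Figure D4:**
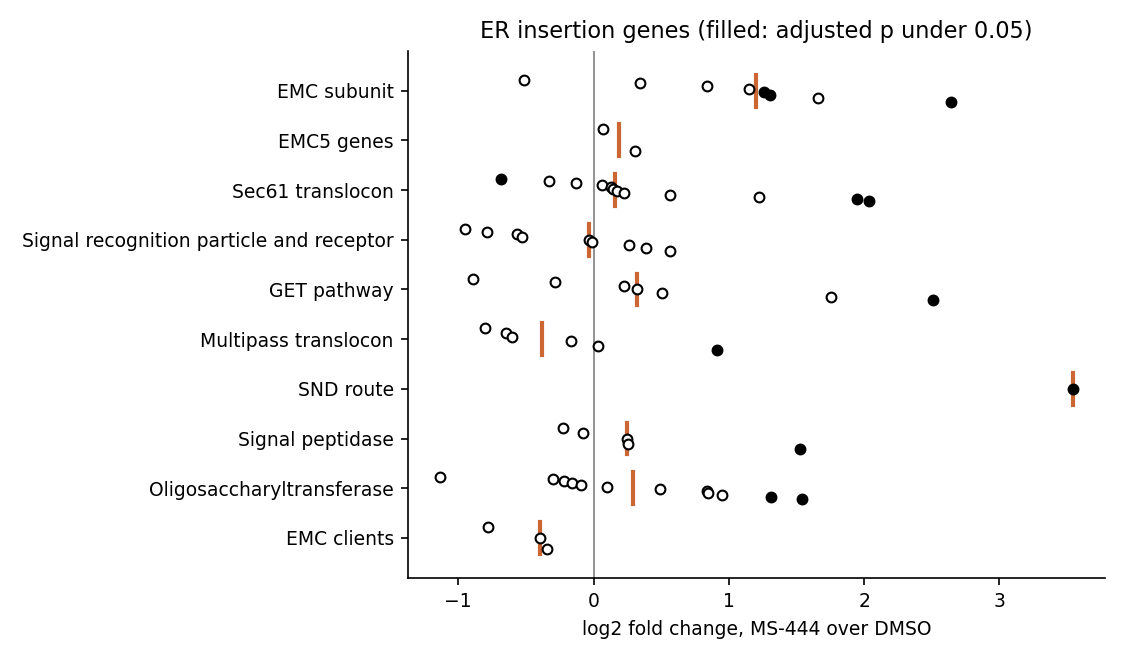
Log2 fold change of MS-444 over DMSO for each tested gene of the EMC, the EMC5 genes and 8 other groups of ER insertion genes, filled where the edgeR adjusted p was under 0.05, with the median of each group as an orange line. The EMC subunits have a median of 1.20 and the 57 genes of the EMC5 pair and the 8 other groups together one of 0.10. The EMC was picked with these values known.

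By likeness of log2 CPM over the 6 libraries, the 3 genes nearest to Emc3 were Nelfe (Pearson r = 0.998), Spsb3 (0.997) and Timm29 (0.997). For Emc9 they were Lrrc75a (0.999), Itgal (0.999) and Ube2e3 (0.998). With 6 points that share the group difference and 11864 genes to choose from, these values are a description only. Spsb3 and Itgal reached the filter only through their MS-444 libraries, and Itgal had the same DMSO counts as Emc9 (5, 4 and 2). Lrrc75a is also the divergent neighbour of Mmgt2.

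**Figure D5:**
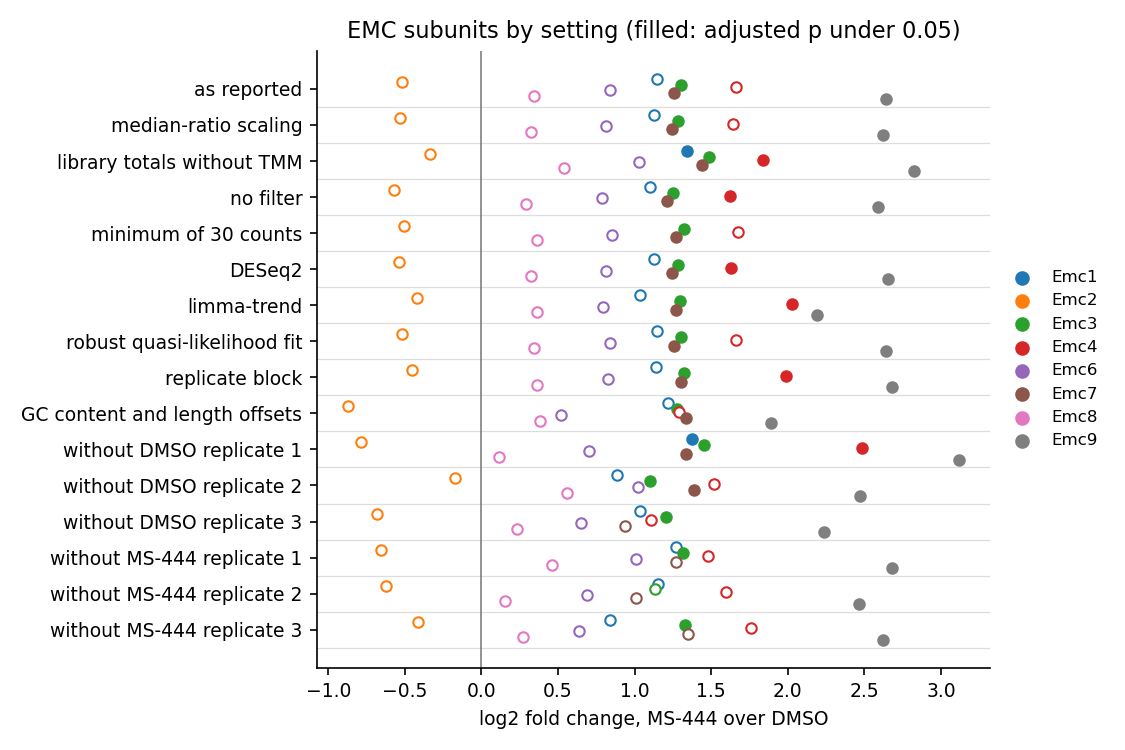
Log2 fold change of MS-444 over DMSO for each of the 8 tested EMC subunits (colours) under the reported fit and 15 alternatives, filled where the adjusted p was under 0.05. Emc9, which reached the filter only through its MS-444 libraries, stays above 1.8 and past the threshold in each setting that tested it. Emc3 loses its call without MS-444 replicate 2, and Emc2 stays below 0 throughout.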

How the data were processed

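The authors deposited raw read counts per Ensembl gene, 1 column per library. HISAT2, Cufflinks 2.2.1 and the build mm9 are named in the submitters' processing notes; no source used here names the counting program, annotation, strand setting or molecular identifiers. GENCODE M21 (GRCm38) gave a symbol for 29127 of 29139 genes; coordinates are from it, not from the authors' build. Genes were kept by edgeR's filter (minimum 10 counts), scaled by TMM and compared with edgeR's two-sided quasi-likelihood test without covariates, Benjamini-Hochberg adjusted over all 11864 genes tested (threshold 0.05). SEs derive from that test. The fit was checked on simulated counts. The software was edgeR 4.0.16 under R 4.3.3, with DESeq2 1.42.0 and limma 3.58.1 for alternatives. Each pair of libraries differed beyond sampling noise (chi-square per degree of freedom 7.99 or more). Members and lists were chosen with earlier results of these data known. Named were all subunits, the EMC5 genes, Elavl1, protein-coding neighbours (1 is not reported here), per list up to 3 passing genes of smallest adjusted p and the most abundant, and the 3 most similar profiles to 2 subunits (log2 of CPM plus 0.5). Sec61a1, Soat1 and single markers were chosen once their values were known. Alternatives were other scalings, filters, tests, a replicate block, sequence offsets and leaving out each library.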

Additional observations from a re-analysis of the deposited data

How the results depend on the processing

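Of the 15 alternatives, each kept the sign of all 8 tested subunits. With ranges over all alternatives, Emc9 passed in the 14 that tested it (1.89 to 3.12), Emc3 in 14 (1.10 to 1.49), Emc7 in 11 (0.94 to 1.44), Emc4 in 6 (1.11 to 2.48) and Emc1 in 2 of 14, while Emc2, Emc6 and Emc8 passed in 0. Emc9 reached the filter only through its MS-444 libraries, and a minimum of 30 counts left it out. Scaled to library totals alone, without TMM, the median of all genes moved to 0.20, 5 subunits were higher, 881 genes were lower and 71.2% of calls were higher (56.3% with TMM), and 0 of the other ER genes were lower. With offsets for GC content and length 2030 genes were lower, 46.0% of calls were higher and 5 ER genes were lower. DESeq2 and the replicate block each called 4 subunits higher and 3 ER genes lower. Same-numbered libraries did not all deviate together (r of 0.05, 0.37 and -0.10 for numbers 1, 2 and 3), and the numbers were not taken as pairs. The block gave 1971 genes higher and 1434 lower. Leaving out 1 library gave 1 to 5 subunits higher, 659 to 2099 genes higher and 500 to 1721 lower, and 3 to 7 ER genes higher and 0 to 3 lower. Reversed signs, at adjusted p of 0.16 or more, were those of Rab5if (-0.022 without a filter, -0.53 with offsets, -0.25 to 0.23 without 1 library), Ubr4 (-0.029 without a filter, -0.22 to 0.11 without 1 library), Srp14 (-0.16 with offsets) and Caml (-0.022 with offsets, -0.040 to 0.43 without 1 library), and, without 1 library, Fancd2 (-0.29 to 0.39), Mmgt1 (-0.11 to 0.13) and Mmgt2 (-0.049 to 0.56). The causes were not tested. Depth limits Emc9, Emc10, Wrb, Psme1, Tmem208, Spcs3, Spsb3 and Itgal, each with few counts in DMSO.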
